A study of Mus musculus with 12 samples.

Results

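Lymphocytes reach, enter and leave tissues through receptors and adhesion molecules on their surface, and 40 genes for such proteins were followed here in sorted mouse T cells. They comprise 13 chemokine receptors, 4 other chemoattractant and lipid receptors (Gpr15, Gpr183, S1pr1 and S1pr4), the selectin ligand Selplg with Cd44 and Cd69, 11 integrin alpha chains, 5 integrin beta chains and 4 adhesion molecules of the immunoglobulin type. The genes were taken by name: a row of the array table belonged to a member when its annotation gave that symbol alone, and the row with the highest mean over the 12 arrays was used where there was more than 1. All 40 were found among the 22180 genes measured, and 2 of them (Selplg and Itgav) had more than 1 row.

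Natural regulatory T cells (nTregs, the CD4 T cells that express the transcription factor Foxp3) came from spleens of B6.Foxp3GFP mice, in which green fluorescence reports Foxp3. T cells depleted of Tregs came from crosses of these mice with B6.CAGDSRED mice, whose CAG promoter drives the red protein DsRed. The characteristics of every array name the cross as the strain, those of the nTregs included, which differs from the stated source of the nTregs. Both populations grew in the same culture at 1 nTreg to 10 other T cells, with beads against CD3 and CD28 and 500 U/mL of human interleukin-2, for 2 days. For the next 2 days the cultures held 1 µM azacitidine (AzaC), a cytidine analogue that enters nucleic acids and inhibits DNA methyltransferases, or PBS. Sorting gave nTregs without DsRed and with Foxp3 reporter signal, and CD4 effector T cells (CD4 cells below) with DsRed and without reporter signal. The 4 groups of 3 Affymetrix arrays are thus CD4 cells with PBS, CD4 cells with AzaC, nTregs with PBS and nTregs with AzaC. The labels give no age or sex, and they do not say whether replicates came from separate mice or cultures, so the p-values speak of the spread among these arrays, which could be technical. The series concerns AzaC in graft-versus-host disease, and the arrays address what it changes in each population.

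As background, chemokine receptors couple to inhibitory G proteins, steer a cell along its ligand and switch integrins to their binding state. An integrin is a pair of an alpha and a beta chain: LFA-1 is made of Itgal and Itgb2 and binds ICAM-1 and ICAM-2, α4β7 binds MAdCAM-1 of gut vessels, and αEβ7 (CD103 with β7) binds E-cadherin on epithelium. CCR7 brings cells into lymph nodes, S1PR1 lets them out again, and CD69 holds S1PR1 back. Activated Tregs are known to carry CD103, CCR4 and CCR8 more often than other CD4 cells do, receptors linked to skin and mucosal sites.

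Values are the authors' log2 signals. The median signal of the 12 arrays lay between 6.67 and 6.80. Treg markers followed the labels. Under PBS and with AzaC, 6 of 6 Treg genes (Foxp3, Il2ra, Ikzf2, Ctla4, Il10 and Tnfrsf18) were higher in nTregs than in CD4 cells. Foxp3 differed by 4.29 under PBS (SE 0.16) and by 3.08 with AzaC (SE 0.16). By limma AzaC raised Foxp3 in CD4 cells by 1.57 (adjusted p = 0.000207) and Il2ra by 0.59 (adjusted p = 0.00383). The other 4 did not pass there. Of 4 T cell markers, Cd4 and Cd3e were lower in nTregs under PBS (−0.83 and −0.77, adjusted p = 0.00408 and 0.0147). The highest adjusted p of Cd3e on leaving out an array was 0.0502. On nTreg PBS 1, an array described below, Cd4 read 10.37 and Cd3e 11.79. The other arrays of that group read 11.08 and 11.08 for Cd4 and 12.58 and 12.63 for Cd3e. Cd3d and Cd3g did not pass, and with AzaC 0 of 4 passed. Of markers of other cells, Cd8a and Cd8b1 rose with AzaC in nTregs, by 1.39 and 0.72, while 0 of 14 myeloid and dendritic cell markers, 0 of 6 B cell markers and 0 of 4 NK cell markers passed there (4, 0 and 3 at an unadjusted p under 0.05, where 16.8% of all genes stood). The array nTreg PBS 1 stood apart, with a mean correlation of 0.961 with the other arrays, where CD4 PBS 3 had 0.970 and the other 10 arrays 0.977 to 0.982. It touched the members: it was the lowest of its group for 21 of the 40, and lay more than 0.5 below the mean of the other two for 11 and above it for 1. Where the difference of a member described below moved by over 1.5 times without it, both values are given. In sorted cells measured in bulk, fewer cells of a kind and less RNA per cell cannot be told apart.

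DNA methyltransferases, which AzaC inhibits, act mainly on cytosines that precede G, so the density of such pairs in the members' promoters is shown before their expression. Sequences are from RefSeq, build GRCm38.p6, and 27 of the 40 members matched, with 28 promoters. The 13 without a promoter there include Itgae, Ccr7, Itgal and Cxcr5, so theirs could not be looked at. In the 250 bases before the start, the pair CG (the same on both strands) occurred 0 to 22 times in members' promoters, with a median of 5, against a median of 6 over all 32851 promoters, of which 92.1% held at least 1. Of the 28 promoters of members, 10 had 10 or more pairs, where 37.8% of all promoters did. The members divided by role. Of 10 promoters of chemokine receptors 1 did, that of Cxcr4, while 5 of 9 of alpha chains, 2 of 3 of beta chains and both of Icam1 and Alcam did. Of 3 promoters of other chemoattractant and lipid receptors 0 did, and that of Cd44 had 5 pairs. Below are 4 promoters of members with differences described later: Cxcr6 rose and Cxcr4 fell with AzaC in nTregs, and Ccr4 and Alcam were higher in nTregs than in CD4 cells. Capitals mark CG pairs. Methylation was not measured in this series.
Cxcr6 (chr9:123806227-123806476, plus strand): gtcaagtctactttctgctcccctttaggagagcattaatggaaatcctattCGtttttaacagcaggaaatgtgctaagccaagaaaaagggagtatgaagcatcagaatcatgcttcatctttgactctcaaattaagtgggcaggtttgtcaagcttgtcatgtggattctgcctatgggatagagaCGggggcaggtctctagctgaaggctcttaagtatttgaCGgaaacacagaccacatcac
Ccr4 (chr9:114496545-114496794, minus strand): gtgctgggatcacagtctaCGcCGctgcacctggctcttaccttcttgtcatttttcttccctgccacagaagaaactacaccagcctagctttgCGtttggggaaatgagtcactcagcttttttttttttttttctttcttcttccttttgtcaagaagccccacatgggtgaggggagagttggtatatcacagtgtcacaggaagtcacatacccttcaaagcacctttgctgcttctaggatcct
Cxcr4 (chr1:128592300-128592549, minus strand): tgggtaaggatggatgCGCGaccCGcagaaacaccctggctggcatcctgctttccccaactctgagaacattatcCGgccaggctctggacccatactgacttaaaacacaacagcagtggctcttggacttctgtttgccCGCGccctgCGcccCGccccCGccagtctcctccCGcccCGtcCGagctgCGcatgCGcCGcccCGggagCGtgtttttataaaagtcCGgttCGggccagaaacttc
Alcam (chr16:52453082-52453331, minus strand): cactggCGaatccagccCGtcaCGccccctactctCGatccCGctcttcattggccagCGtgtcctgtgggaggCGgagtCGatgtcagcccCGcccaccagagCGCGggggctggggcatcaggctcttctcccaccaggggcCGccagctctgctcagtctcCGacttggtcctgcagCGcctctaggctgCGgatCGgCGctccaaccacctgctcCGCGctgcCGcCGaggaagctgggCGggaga

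Cxcr6 and Ccr4 thus have 3 pairs each, while the 19 of Cxcr4 and the 22 of Alcam are far more numerous in windows of the same length. Whether the number of pairs bears on the members' expression was not tested.

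In nTregs, AzaC raised Itgae (CD103, the alpha E integrin chain), Cxcr6 (the receptor of CXCL16) and Ccr7, and lowered Cxcr4 (the receptor of CXCL12) and Itgam (CD11b, the alpha M chain). A gene was called, and is said to have risen or fallen, when limma's p adjusted by Benjamini-Hochberg over all genes was under 0.05. Of all genes 2.02% were called in this comparison, 1.42% higher and 0.6% lower, and of the members 5 of 40, 3 higher and 2 lower. After centring each array at its own median the members' split was 5 higher and 0 lower, and with quantile normalization repeated 2 higher and 3 lower. The median difference of the members was 0.11 against −0.04 for all genes, and the groups did not overlap for 22 members (55% against 24.5% of all genes).

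Itgae was the member that limma separated most clearly. Its signals in nTregs were 8.65, 8.58 and 8.65 with PBS and 9.70, 9.43 and 9.63 with AzaC. Every AzaC array thus lay well above every PBS array, and the log2 difference was 0.96 (SE 0.10, adjusted p = 0.00018). In CD4 cells Itgae stood at 7.31, 7.22 and 7.27 with PBS and at 7.62, 7.50 and 7.67 with AzaC. These groups did not overlap either, but the difference of 0.33 (SE 0.10) did not pass (adjusted p = 0.122). The test of the difference between the effects gave 0.63 (SE 0.14, adjusted p = 0.103; 0.0419 with arrays centred). It also passed with array weights (0.0217), but not with quantile normalization repeated or on leaving out any single array. Itgb7, the beta chain with which alpha E pairs, differed by 0.16 in nTregs (−0.03 without nTreg PBS 1) and −0.20 in CD4 cells, none past the threshold.

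Cxcr6 was the member whose response to AzaC differed between the populations. In nTregs it read 6.80, 6.53 and 7.04 with PBS and 7.66, 7.71 and 7.99 with AzaC, without overlap. It rose by 1.00 (SE 0.15, adjusted p = 0.00245). In CD4 cells it read 7.52, 7.52 and 7.47 with PBS and 7.14, 7.47 and 7.06 with AzaC, where the groups touched at their edges. That difference was −0.28 (SE 0.15, adjusted p = 0.38). The 2 effects differed by 1.28 (SE 0.21, adjusted p = 0.0252), in a test that called 0.203% of all genes (0.144% higher and 0.0586% lower) and 1 of the 40 members. Accordingly nTregs were below CD4 cells under PBS (−0.71, adjusted p = 0.00762) and above them with AzaC (0.56, adjusted p = 0.0306). The interaction was lost without CD4 PBS 1, 2 or 3 (adjusted p = 0.0583, 0.0724 and 0.0596), CD4 AZA 1 or 3 (0.0801 and 0.0853) or nTreg AZA 1, 2 or 3 (0.0539, 0.0654 and 0.0852). The difference with AzaC was lost without CD4 AZA 1 or 3 (0.126 and 0.132) or nTreg AZA 1, 2 or 3 (0.0538, 0.0654 and 0.147). The rise in nTregs and the PBS difference held without each array in turn.

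Cxcr6 and Itgae are expressed by CD8 T cells too, and the CD8 markers moved in the same comparison. Cd8a went from 6.86 ± 0.48 (SD, n = 3) to 8.24 ± 0.08 in nTregs (adjusted p = 0.0018) and Cd8b1 from 10.42 ± 0.15 to 11.14 ± 0.07. The summed level of both lay between 10.35 and 10.69 with PBS and between 11.24 and 11.37 with AzaC (log2). Their part in the members' differences was not tested. The call of Cd8b1 (adjusted p = 0.0213) did not hold in every leave-out (highest adjusted p = 0.0974). Between the populations under PBS, a different comparison, Cd8a and Cd8b1 differed by 0.00 and 0.27, neither past the threshold. There Itgae was higher in nTregs (1.36) and Cxcr6 lower (−0.71). The part of CD8 markers in those differences was not tested either.

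Cxcr4, the receptor that holds cells in bone marrow and lymphoid stroma, read 10.79, 11.12 and 11.10 in nTregs with PBS and 10.38, 10.45 and 10.45 with AzaC. It fell by 0.58 (log2; SE 0.12; adjusted p = 0.0255) with no overlap. CD4 cells had 10.24, 10.46 and 10.62 with PBS and 9.96, 10.05 and 10.14 with AzaC, again without overlap (−0.39, SE 0.12, adjusted p = 0.133; 0.0463 without nTreg PBS 1). The effects differed by −0.19 (SE 0.17; −0.29 without nTreg PBS 1), not past the threshold. The nTreg call was lost without nTreg PBS 2 or 3 (adjusted p = 0.0717 and 0.0672) or nTreg AZA 1, 2 or 3 (0.0962, 0.0873 and 0.0907), as well as with arrays centred (0.0547) and in a fit of the nTreg arrays alone (0.0884).

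Itgam, which forms Mac-1 with Itgb2 and is best known from myeloid cells, read 7.33, 7.83 and 7.59 in nTregs with PBS and 6.26, 6.79 and 6.88 with AzaC. It fell by 0.94 (log2; SE 0.21; adjusted p = 0.0335). The call was lost without CD4 AZA 2 or 3 (0.0522 and 0.0519), nTreg PBS 2 or 3 (0.0868 and 0.0647) or nTreg AZA 1, 2 or 3 (0.141, 0.0781 and 0.056), as well as with arrays centred (0.0525) and in a fit of the nTreg arrays alone (0.0955). In CD4 cells Itgam stood at 7.04, 7.16 and 7.83 with PBS and 6.87, 6.83 and 6.66 with AzaC (−0.55, adjusted p = 0.226). So the AzaC arrays were below the PBS arrays in both populations. Over the 14 myeloid and dendritic cell markers the median difference in nTregs was −0.14, and their summed level lay between 10.39 and 10.44 with PBS and between 10.21 and 10.35 with AzaC. Their part in the fall of Itgam was not tested. Itgax (CD11c), its neighbour in the beta 2 family, differed by 0.08 in nTregs (0.13 without nTreg PBS 1) and 0.03 in CD4 cells, far from the threshold.

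Ccr7, which guides naive and central memory cells to lymph nodes by CCL19 and CCL21, was just past the threshold. It read 9.21, 9.38 and 9.41 in nTregs with PBS and 9.78, 9.70 and 9.77 with AzaC, a difference of 0.41 (SE 0.10, adjusted p = 0.0494). Without any single array the call was lost (adjusted p = 0.0729, 0.0724 and 0.0504 without CD4 PBS 1, 2 and 3; 0.061, 0.0539 and 0.0657 without CD4 AZA 1, 2 and 3; 0.104, 0.0754 and 0.0625 when nTreg PBS 1, 2 and 3 were left out; 0.158, 0.133 and 0.168 for nTreg AZA 1, 2 and 3), as it was with quantile normalization repeated (0.109) and in a fit of the nTreg arrays alone (0.144). CD4 cells had 10.53, 10.54 and 10.45 with PBS and 10.39, 10.54 and 10.31 with AzaC (−0.09).

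Several further members had AzaC arrays on one side of the PBS arrays in nTregs without passing. Cxcr5, the receptor of B cell follicles, read 8.02, 8.22 and 8.34 with PBS and 8.71, 8.49 and 8.78 with AzaC (0.47, adjusted p = 0.0568; 0.0409 with arrays centred). Gpr183, a receptor for oxysterols, read 8.10, 7.91 and 7.94 and then 8.63, 8.38 and 8.42 (0.49, adjusted p = 0.0645; 0.0313 centred, and 0.0275 without CD4 PBS 3). Both genes missed the threshold by little, and both also passed with array weights and among genes at or above the median signal. Neither passed with quantile normalization repeated or in a fit of the nTreg arrays alone. Without nTreg PBS 1 the differences of Cxcr5 and Gpr183 were 0.39 and 0.54 (limma, adjusted p = 0.129 and 0.0586). Ccr4, the receptor of CCL17 and CCL22, read 8.01, 8.83 and 8.59 and then 9.05, 9.10 and 9.13 (0.62, adjusted p = 0.0919). Its low value is that of nTreg PBS 1, without which the difference was 0.39 (adjusted p = 0.197), and without nTreg PBS 2 it passed (0.0321). Icam1, the ligand of LFA-1, read 8.79, 9.95 and 9.93 and then 10.40, 10.38 and 10.45 (0.85, SE 0.23, adjusted p = 0.0787). For Icam1 too the low value is that of nTreg PBS 1, without which the difference was 0.47 (adjusted p = 0.061). Without nTreg PBS 2 or 3 it passed (adjusted p = 0.0397 and 0.0452).

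**Figure D1:**
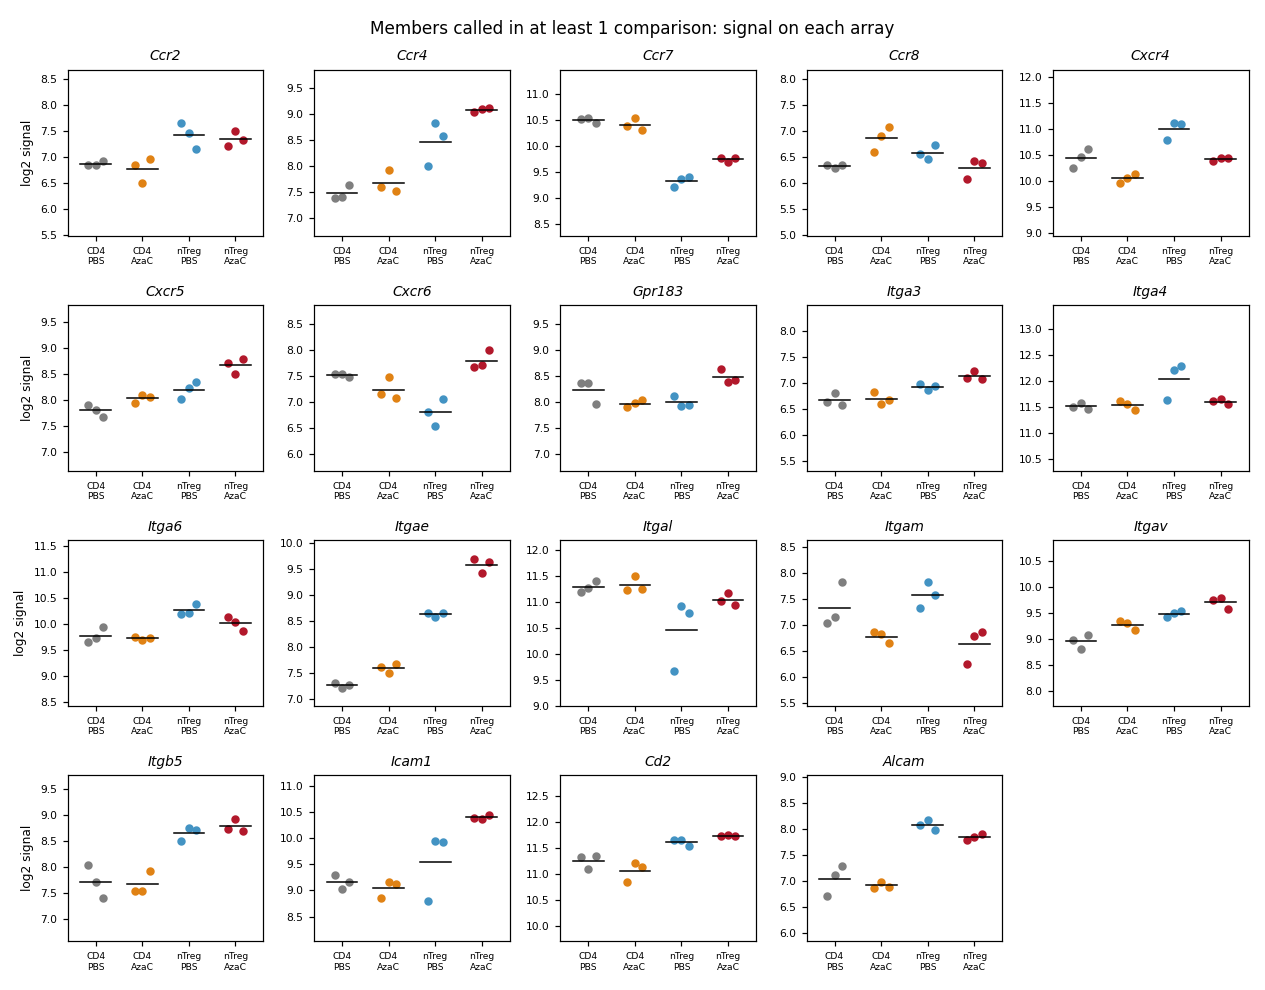
Log2 signal of the 19 members called in at least 1 comparison, by group (3 arrays each, points; line, group mean). Every panel spans the same length of log2 scale around its own middle. Itgae climbs from CD4 cells with PBS (mean 7.26) to nTregs with AzaC (9.59), and Cxcr6 is lowest in nTregs with PBS (6.79) and highest in nTregs with AzaC (7.79).

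In CD4 cells, AzaC moved 0 of the 40 members past the threshold of limma, where 1.76% of all genes passed (0.83% higher and 0.933% lower). At an unadjusted p under 0.05 stood 10 of the 40 members (25% against 15.2% of all genes), and the groups did not overlap for 15 (37.5% against 23.6%). The members' median difference was −0.09 (0.01 for all genes), with 15 above 0 and 25 below. Of 4 NK cell markers 1 passed, Klrd1, which fell by 1.35 (adjusted p = 0.00161). The other 3 had slightly higher means with AzaC than with PBS: Ncr1 (6.41 and 6.15), Klrb1c (6.04 and 5.89) and Klre1 (6.33 and 6.29). The median difference of the 4 was 0.10. Their summed log2 level, to which Klrd1 contributes most under PBS, lay between 8.87 and 9.17 with PBS and between 8.17 and 8.69 with AzaC. Ccr8, a receptor of CCL1 found on activated Tregs, came closest. It read 6.34, 6.28 and 6.35 with PBS and 6.59, 6.91 and 7.08 with AzaC, a difference of 0.54 (SE 0.14, adjusted p = 0.0648). All AzaC arrays were higher, and the comparison passed without CD4 AZA 1 (0.038) or nTreg PBS 1 (0.0372). In nTregs Ccr8 stood at 6.55, 6.47 and 6.74 with PBS and 6.08, 6.43 and 6.38 with AzaC (−0.29, adjusted p = 0.3). The effects pointed in opposite directions, and their difference of −0.83 (SE 0.19) did not pass (adjusted p = 0.11). Its mean signal of 6.52 was below the median gene's 6.96.

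**Figure D2:**
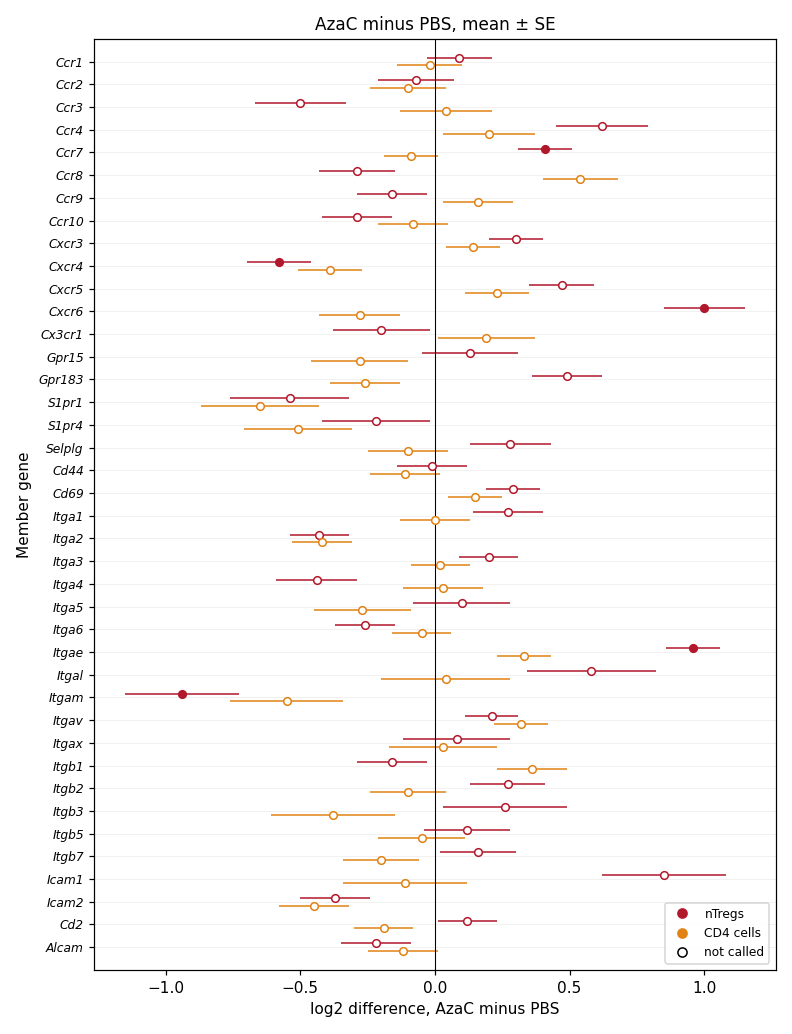
Log2 difference of AzaC minus PBS for the 40 members (points; bars, SE of the limma fit; filled where called), in nTregs (red) and in CD4 cells (orange). Filled points are those of Ccr7, Cxcr4, Cxcr6, Itgae and Itgam in nTregs, and none of CD4 cells is filled.

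The receptors of sphingosine 1-phosphate depended on nTreg PBS 1. S1pr1, needed to leave lymph nodes, read 12.30, 12.19 and 12.27 in CD4 cells with PBS and 11.38, 11.75 and 11.67 with AzaC. The groups lay apart by 0.65 (SE 0.22), without passing when all arrays were fitted (adjusted p = 0.18). In nTregs it read 10.97, 12.09 and 12.03 with PBS and 11.08, 11.24 and 11.15 with AzaC (−0.54, SE 0.22, adjusted p = 0.242). The single low PBS value is that of nTreg PBS 1, and it lay 1.09 below the mean of its group's other arrays. Without that array S1pr1 was lower with AzaC in CD4 cells (−0.65, SE 0.10, adjusted p = 0.00325) and in nTregs (−0.90, SE 0.12, adjusted p = 0.00139). The spread is shared by all groups of the fit, so this array also widens the error in CD4 cells. In a fit of the CD4 arrays alone S1pr1 passed (adjusted p = 0.0277).

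S1pr4, a related receptor of lymphocytes, depended on that array in the same way. Its signals were 9.50, 9.46 and 9.43 in CD4 cells with PBS, and 8.87, 9.07 and 8.92 with AzaC. With all arrays the difference was −0.51 (adjusted p = 0.255), and without nTreg PBS 1 also −0.51 (adjusted p = 0.00633). In nTregs it read 8.54, 9.47 and 9.63 and then 8.95, 9.03 and 8.99, a difference of −0.22 (adjusted p = 0.591) that became −0.56 (adjusted p = 0.0105) without nTreg PBS 1. Cd69, the counterpart of S1pr1, differed by 0.29 in nTregs (adjusted p = 0.165) and 0.15 in CD4 cells, with all AzaC arrays above the PBS arrays in both.

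Itga4, Itga2, Icam2 and Cxcr4 also crossed the threshold in a population without that array. Itga4, the alpha chain of α4β1 and α4β7, read 11.63, 12.22 and 12.30 in nTregs with PBS and 11.62, 11.65 and 11.56 with AzaC. The difference went from −0.44 (adjusted p = 0.152) to −0.65 (0.00372) when it was left out. In CD4 cells Itga2, the alpha chain of a collagen receptor, read 9.44, 9.47 and 9.61 and then 8.99, 9.11 and 9.16 (−0.42, adjusted p = 0.092; 0.0483 without it). Icam2 read 8.98, 9.03 and 8.95 and then 8.70, 8.43 and 8.48 (−0.45, adjusted p = 0.117; 0.0236 without it). For these CD4 values the difference itself did not move, only its error. Without nTreg PBS 1, 6 members were called in CD4 cells (1 higher and 5 lower), and 7 in nTregs (2 higher and 5 lower). Over all genes 1044 were then called in CD4 cells in place of 391, and 410 in nTregs in place of 448.

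**Figure D3:**
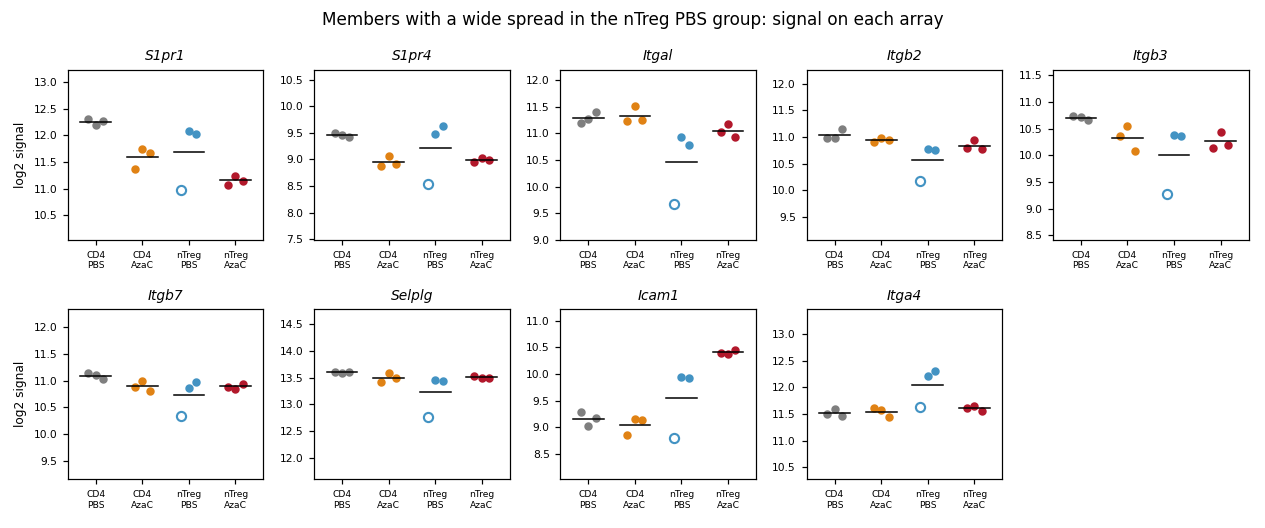
Log2 signal of 9 members with a wide spread among nTregs with PBS, by group (points, arrays; line, group mean; open circle, nTreg PBS 1; panels span the same length of log2 scale). The open circle lies below both other arrays of its group in each panel, by 1.18 for Itgal and 0.58 for Itgb7 against their mean.

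Under PBS, nTregs and CD4 cells differed in 12 of the 40 members, 9 higher in nTregs and 3 lower, against 8.01% of all genes (3.9% higher and 4.12% lower). Higher in nTregs were Itgae, Alcam, Ccr4, Itgb5, Cxcr4, Ccr2, Itgav, Itga4 and Itga6, and lower were Ccr7, Cxcr6 and Itgal. The groups did not overlap for 23 members (57.5% against 26.7%). These comparisons share arrays with those of AzaC within a population, so their values are given side by side and not set against each other. Of markers of other cells, 1 of 6 of B cells was higher in nTregs (Cd79b, 0.80), 1 of 4 of NK cells lower (Klrd1, −1.30), and 0 of 14 of myeloid and dendritic cells passed (0 at an unadjusted p under 0.05). Their summed log2 levels in nTregs and CD4 cells were 9.26 to 9.47 and 8.95 to 9.13 for B cells, and 8.32 to 8.50 and 8.87 to 9.17 for NK cells. Their part in the members' differences was not tested.

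Itgae led, with a difference of 1.36 (SE 0.10, adjusted p = 1.13e-06), followed by Ccr7 at −1.17 (SE 0.10, adjusted p = 4.4e-06). All 3 nTreg arrays of Ccr7 lay more than 1 below those of CD4 cells. Alcam (CD166, a ligand of CD6) read 8.09, 8.18 and 7.98 in nTregs and 6.71, 7.13 and 7.29 in CD4 cells, a difference of 1.04 (SE 0.13, adjusted p = 0.000197). Itgb5, which pairs with the alpha V chain, read 8.50, 8.75 and 8.71 against 8.03, 7.70 and 7.40 (0.94, SE 0.16, adjusted p = 0.00182). Its partner Itgav was higher too, at 9.43, 9.50 and 9.55 against 8.99, 8.82 and 9.08 (0.53, SE 0.10, adjusted p = 0.00611). So both chains of αvβ5, a receptor of vitronectin, were higher in nTregs. Ccr4 differed by 1.00 (SE 0.17, adjusted p = 0.0027) from 7.39, 7.41 and 7.64 in CD4 cells. These 6 genes and Cxcr6 stayed called whichever of the 12 arrays was left out.

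The other 5 calls each rested on single arrays, and all were lost in a fit of the PBS arrays alone (adjusted p = 0.09 for Cxcr4, 0.081 for Itga6, 0.0879 for Ccr2, 0.174 for Itga4 and 0.2 for Itgal). Cxcr4 (0.56, adjusted p = 0.011) was lost without CD4 PBS 1 (0.0534). Itga6, the alpha chain of a laminin receptor, read 10.19, 10.22 and 10.39 against 9.65, 9.74 and 9.94 (0.50, adjusted p = 0.013) and was lost without CD4 PBS 1 or 2 (0.0592 and 0.0511). Ccr2, a receptor of CCL2, read 7.65, 7.47 and 7.16 against 6.85, 6.84 and 6.92 (0.55, adjusted p = 0.0298). It was lost without CD4 PBS 1, 2 or 3 (0.0805, 0.0845 and 0.0678) or nTreg PBS 1 or 2 (0.0904 and 0.0679); repeating the quantile normalization also ended the call (0.052). All nTreg arrays were nonetheless above all CD4 arrays for each of these genes.

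Itga4 in CD4 cells with PBS read 11.50, 11.59 and 11.47, below each nTreg array (0.53, adjusted p = 0.0381). With nTreg PBS 1 left out the difference was 0.74 (adjusted p = 0.000331). The call was lost without CD4 PBS 1, 2 or 3 (0.0966, 0.075 and 0.115), CD4 AZA 2 or 3 (0.053 and 0.0521), nTreg PBS 2 or 3 (0.108 and 0.11) or nTreg AZA 1, 2 or 3 (0.0556, 0.0542 and 0.0556), and with arrays centred (0.0845). Itgal, the alpha chain of LFA-1, read 9.68, 10.93 and 10.79 in nTregs and 11.19, 11.27 and 11.40 in CD4 cells. Its difference of −0.82 (SE 0.24, adjusted p = 0.0484) shrank to −0.43 (SE 0.12, adjusted p = 0.0457) without nTreg PBS 1. It was lost without CD4 PBS 1, 2 or 3 (0.0893, 0.108 and 0.151), CD4 AZA 1, 2 or 3 (0.0668, 0.0629 and 0.0685) or nTreg AZA 1, 2 or 3 (0.0683, 0.0649 and 0.0679), as well as with quantile normalization repeated (0.0524) and with array weights (0.055). Without nTreg PBS 1 Icam1 (0.79, adjusted p = 0.000766) and Cxcr5 (0.48, adjusted p = 0.0219) were higher in nTregs and Icam2 lower (−0.41, adjusted p = 0.0418); with it they stood at 0.40, 0.40 and −0.27 and did not pass.

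With AzaC, 14 of the 40 members differed between the populations, 12 higher in nTregs and 2 lower, against 6.75% of all genes (4.57% higher and 2.19% lower). The groups did not overlap for 21 members (52.5% against 32.3%). Called under both conditions were 8 members, which are 66.7% of the 12 and 57.1% of the 14: Ccr2, Ccr4, Ccr7, Itgae, Itgav, Itgb5 and Alcam in the same direction, and Cxcr6 in opposite ones. The 2 comparisons share no array in their differences. Their error is taken from all 12 arrays, so the calls are not independent. Cd8a and Cd8b1 were also higher in nTregs here, by 1.36 and 1.27, as was Cd79b, by 1.08, and their part in the members' differences was not tested.

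Itgae again led, at 1.99 (SE 0.10, adjusted p = 4.99e-08), a 3.97-fold higher signal in nTregs. Ccr4 differed by 1.41 (SE 0.17, adjusted p = 0.000146), with 7.60, 7.93 and 7.52 in CD4 cells with AzaC. Ccr7 was lower by 0.66 (SE 0.10, adjusted p = 0.000769). As under PBS, Itgae and Ccr4 were above CD4 cells and Ccr7 below. Icam1 stood at 8.86, 9.16 and 9.13 in CD4 cells with AzaC, against values above 10 on every nTreg array (1.36, SE 0.23, adjusted p = 0.00213). Itgb5 read 8.72, 8.92 and 8.68 against 7.53, 7.53 and 7.92 (1.11, SE 0.16, adjusted p = 0.000453). Alcam read 7.80, 7.86 and 7.92 against 6.88, 6.99 and 6.90 (0.93, SE 0.13, adjusted p = 0.000442). Cd2, a receptor of CD48 that strengthens contact with other cells, had nearly equal nTreg signals of 11.72, 11.75 and 11.72. In CD4 cells Cd2 read 10.84, 11.21 and 11.12 (0.68, SE 0.11, adjusted p = 0.00181; 0.36 and 0.0672 under PBS). Cxcr5 was higher in nTregs by 0.64 (SE 0.12, adjusted p = 0.00369), with 7.93, 8.09 and 8.05 in CD4 cells. These 8 genes stayed called whichever array was left out.

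Beside Cxcr6, the remaining 5 calls with AzaC were smaller and each was lost without some array. Ccr2 (0.58, adjusted p = 0.0259) was lost without CD4 AZA 1 or 2 (0.0654 and 0.0988) or nTreg AZA 2 or 3 (0.115 and 0.0771). Ccr8 was lower in nTregs (−0.56, adjusted p = 0.0212), a call lost without CD4 AZA 2 or 3 (0.0646 and 0.106) or nTreg AZA 1 (0.112). Under PBS it was 0.26 higher (adjusted p = 0.264), and the test of the change in difference is the interaction given above. Gpr183 (0.51, adjusted p = 0.0231) was lost without CD4 AZA 1, 2 or 3 (0.0993, 0.0564 and 0.0537) or nTreg AZA 1 or 3 (0.115 and 0.0605). Its signals with AzaC were 7.89, 7.97 and 8.02 in CD4 cells, and the effects of AzaC on it differed by 0.75 (SE 0.18, adjusted p = 0.115; 0.0446 with arrays centred). That difference of effects also passed with array weights (0.00649), but not with quantile normalization repeated or on leaving out any single array. Itga3, the alpha chain of another laminin receptor, read 7.08, 7.23 and 7.06 against 6.82, 6.58 and 6.66 (0.44, adjusted p = 0.0213), lost without CD4 AZA 2 or 3 (0.0764 and 0.0773) or nTreg AZA 1, 2 or 3 (0.0565, 0.1 and 0.0518). Itgav read 9.75, 9.80 and 9.58 against 9.35, 9.31 and 9.18 (0.43, adjusted p = 0.0232), lost without CD4 AZA 3 (0.103) or nTreg AZA 1 or 2 (0.0911 and 0.102). The other row of Itgav lay between 5.37 and 5.94 on all arrays, and with the mean of both rows the adjusted p was 0.26. With quantile normalization repeated Ccr8, Gpr183 and Itgav were not called (0.0562, 0.0954 and 0.0797).

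**Figure D4:**
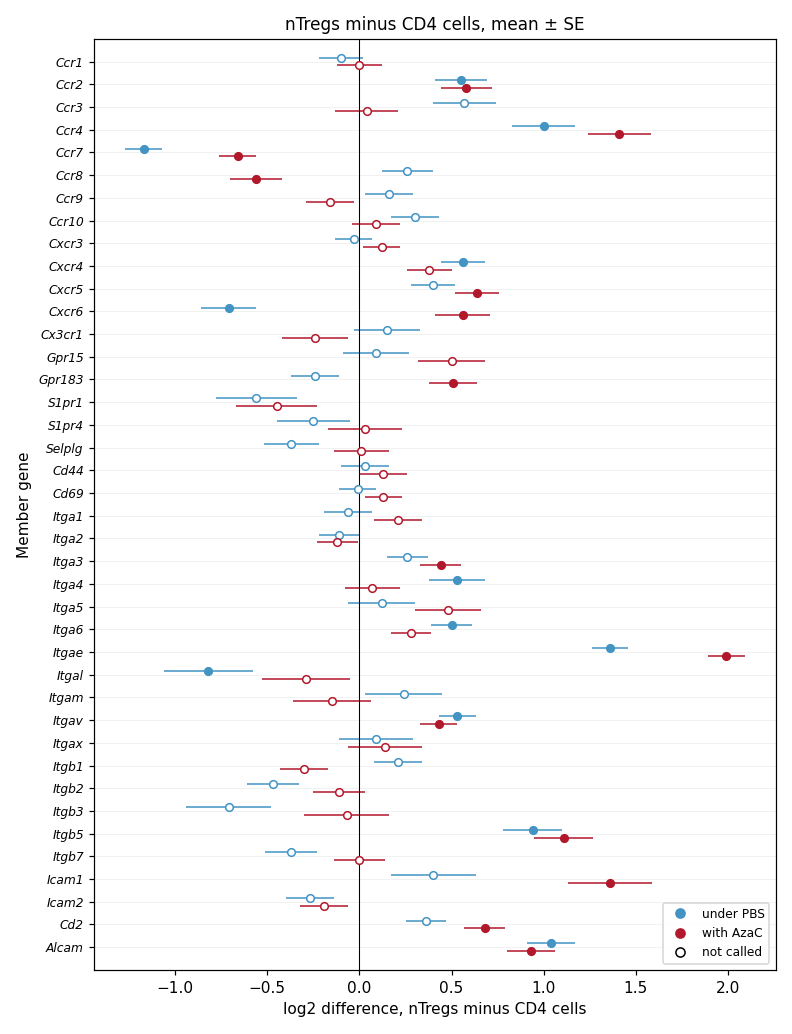
Log2 difference of nTregs minus CD4 cells for the 40 members (points; bars, SE of the limma fit; filled where called), under PBS (blue) and with AzaC (red). Itgae lies farthest to the right in both (1.36 and 1.99), Ccr7 farthest to the left under PBS (−1.17), and Cxcr6 is filled on opposite sides (−0.71 and 0.56).

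Partner chains of an integrin did not always differ together. LFA-1's Itgb2 read 10.18, 10.78 and 10.75 in nTregs and 10.98, 10.99 and 11.15 in CD4 cells under PBS (−0.47, adjusted p = 0.0552), beside the call of Itgal. It passed without nTreg PBS 2 or 3 (0.0344 and 0.0401) and with arrays centred (0.034). On nTreg PBS 1 Itgb2 lay 0.59 below the other arrays of its group, and without that array the difference was −0.28 (adjusted p = 0.135). With AzaC they differed by −0.29 and −0.11, neither past the threshold. Itgb7 differed by −0.37 under PBS (adjusted p = 0.132; −0.17 and 0.38 without nTreg PBS 1) and −0.00 with AzaC, while its partners Itgae and Itga4 were higher in nTregs under PBS. Itgb1, the commonest partner of the alpha chains, differed by 0.21 under PBS and −0.30 with AzaC, not past the threshold. Itgb3, another beta chain that pairs with alpha V, read 9.27, 10.37 and 10.36 in nTregs and 10.74, 10.72 and 10.66 in CD4 cells under PBS (−0.71, adjusted p = 0.0795). Without nTreg PBS 1 the difference was −0.34 (adjusted p = 0.171), and it passed without nTreg PBS 2 or 3 (0.0389 and 0.0396), which leaves the low array with 1 other.

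In none of the 5 comparisons were 21 members called: Ccr1, Ccr3, Ccr9, Ccr10, Cxcr3, Cx3cr1, Gpr15, S1pr1, S1pr4, Selplg, Cd44, Cd69, Itga1, Itga2, Itga5, Itgax, Itgb1, Itgb2, Itgb3, Itgb7 and Icam2. Their differences lay between −0.54 and 0.30 for AzaC in nTregs, −0.65 and 0.36 for AzaC in CD4 cells, −0.71 and 0.57 between populations under PBS, and −0.45 and 0.50 with AzaC. The ends at −0.54 and −0.71 are those of S1pr1 and Itgb3, whose values without nTreg PBS 1 are given above. Cd44, the hyaluronan receptor of activated T cells, had group means of 8.19 to 8.33 and no difference above 0.13 in size in the population or AzaC comparisons. Cxcr3, the receptor of interferon-induced chemokines, had means of 9.67 to 9.97. Selplg (PSGL-1, the ligand of P-selectin) had means of 13.23 to 13.60 and was 0.68 lower on nTreg PBS 1 than on the mean of its group's other arrays. Ccr1, Ccr3, Ccr9, Ccr10, Gpr15, Itga1 and Itgax had mean signals below the median gene of 6.96, as had the called Ccr8 and Itga3. The files give no detection call, so whether these were expressed was not tested.

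Lists set with the members held 110 other measured genes of trafficking. Under PBS 26 of these differed between the populations (23.6% against 8.01% of all genes), and with AzaC 20 did (18.2% against 6.75%). Of 10 other chemokine and atypical receptors, 2 were higher in nTregs under PBS and with AzaC and 0 lower. They were Ccrl2, which binds chemerin (0.74 and 1.25), and Ccr6, the receptor of CCL20 (0.68 and 0.75), whose calls did not hold in every leave-out (highest adjusted p = 0.0669 and 0.052). Of 9 other integrin chains, 1 was higher in both: Itgb8, which with alpha V activates TGF-beta (0.92 and 1.29, adjusted p = 0.00584 and 0.000402). By limma AzaC changed 0 of the 10 and 0 of the 9 in either population (2 and 2 at an unadjusted p under 0.05 in nTregs, and 2 and 2 in CD4 cells, where 16.8% and 15.2% of all genes stood).

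Of 20 genes that activate integrins or link them to the cytoskeleton, 5 were lower in nTregs under PBS and 0 higher, with a median of −0.33 (0.03 for all genes), and with AzaC 3 were lower and 1 higher (median −0.13). Rasgrp2, the exchange factor for Rap1, was lower by 1.09 under PBS (SE 0.13, adjusted p = 0.000138) and by 1.08 with AzaC. Rasgrp1 was lower by 0.86 and 0.45, and Skap1 by 0.39 and 0.59; the smaller value of each lost its call in some leave-outs (highest adjusted p = 0.135 and 0.122). Of 22 genes of chemokine receptor signalling and motility, 2 were higher and 4 lower under PBS, and 2 and 1 with AzaC. The higher ones in both were Rgs1 (1.62 and 1.64) and Rgs2 (1.35 and 1.26), which speed the switching off of G proteins, and Pik3cg, a kinase downstream of them, was lower (−0.68 and −0.88). Rgs1 had group means of 10.32 ± 0.12 (SD, n = 3) in nTregs with PBS and 8.71 ± 0.16 in CD4 cells. Among 13 transcription factors known for homing genes, 1 was higher (Prdm1, 0.89) and 6 were lower under PBS, and the lower ones with the smallest p were Satb1 (−0.74), Runx1 (−0.80), Gata3 (−0.75) and Runx3 (−0.61). The call of Prdm1, a regulator of effector cells, did not hold in every leave-out (highest adjusted p = 0.0548). With AzaC 1 was higher (Prdm1, 1.06) and 3 were lower, Satb1 (−0.67) and Runx3 (−0.81) among them, while Runx1 (−0.04) and Gata3 (−0.26) did not pass. The array nTreg PBS 1 bears on the PBS values above. Gata3 read 8.63 on it (9.21 and 9.27 on its group's other arrays) and Rasgrp1 10.40 (10.72 and 10.79). Pik3cg read 7.82 (8.31 and 8.34) and Rgs2 8.64 (7.67 and 7.75), each of these farther from CD4 cells. Prdm1 (8.63, others 9.26 and 9.46) and Rasgrp2 (9.74, others 9.30 and 9.63) lay nearer to them. Counts of the 110 genes without that array are not given here.

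Of the 110 genes AzaC changed 6 in nTregs (5.45% against 2.02% of all genes) and 4 in CD4 cells (3.64% against 1.76%). Of 17 selectins, adhesion receptors and counter-receptors, Madcam1 (0.93, adjusted p = 0.0104) and Fn1 (fibronectin, 0.61, adjusted p = 0.0151) rose in nTregs, and Cdh1 (E-cadherin, the ligand of CD103) rose in CD4 cells (0.59, adjusted p = 0.0417). The calls of Fn1 and Cdh1 held in 10 and 3 of 12 leave-outs. Between the populations Cd226, a receptor that aids cell contact, was lower in nTregs (−0.82 under PBS and −0.53 with AzaC), Mcam was higher under PBS (1.21), and Madcam1 and Fn1 were higher with AzaC (0.93 and 0.83). Of 10 glycosyltransferases that build selectin ligands, St3gal3 rose in nTregs (0.96, adjusted p = 0.00358). St3gal6, a sialyltransferase, fell by 0.96 in CD4 cells (log2; SE 0.09; adjusted p = 9.09e-05), from 8.38 ± 0.07 (SD, n = 3) to 7.42 ± 0.05, and stood at 7.59 ± 0.06 and 7.35 ± 0.04 in nTregs. Of 9 genes of sphingosine phosphate and oxysterol receptors and enzymes, Sgpl1, the lyase of sphingosine phosphate, rose in nTregs (0.51, adjusted p = 0.0444), a call kept in 2 of 12 leave-outs. Klf3, a repressor related to Klf2, fell by 0.70 in nTregs (adjusted p = 0.00427) and by 0.49 in CD4 cells (adjusted p = 0.0404; kept in 2 of 12 leave-outs). Rgs10, a regulator of G proteins, fell by 0.42 in each (adjusted p = 0.0411 and 0.0425; kept in 3 and 1 of 12).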

How the data were processed

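The authors deposited log2 expression values of 12 Affymetrix arrays, for which the submitters' processing notes name RMA and the Affymetrix Expression Console (versions not given in the sources used here). RMA subtracts background, equalises the distributions of the arrays and summarises probes, so a shift common to most genes cannot be seen. Of 41345 rows, 23521 had a single gene symbol in the platform annotation, and for each of 22180 genes the row with the highest mean was used. No 2 arrays held identical values. limma 3.58.1 in R 4.3.3 fitted 1 mean per group over the 12 arrays (8 residual degrees of freedom), with eBayes and Benjamini-Hochberg adjustment over all genes in each of 5 comparisons, and the fit was tested on simulated data. The number of arrays limits the precision: the median SE was 0.13, and 0.18 for the interaction. The members and gene lists were chosen with earlier results of these data known. The rule for named genes took every member called in a comparison, up to 5 uncalled members of known role, and up to 4 called genes of each list with the smallest p; further uncalled members, mostly those whose call depended on an array, and further list genes were named after their values were seen. Alternatives were a signal filter, row means, centring, repeated quantile normalization, fits of the compared groups alone, replicate blocks, array weights, a variance trend, and leaving out arrays. Leaving out nTreg PBS 1 and CD4 PBS 3 together was chosen after seeing the data. Same-numbered samples did not deviate together (correlations −0.10 to 0.19), so the numbers were not treated as pairs. CD8 effector cells were not analysed here.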

Additional observations from a re-analysis of the deposited data

Results flagged for a closer look

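Among the members, the listed genes and the cell type markers, the effect of AzaC differed between the populations for 3 genes. The test was limma's interaction with Benjamini-Hochberg adjustment, which called 45 of all 22180 genes. For Cxcr6 the effect in nTregs exceeded that in CD4 cells by 1.28 log2 units (SE 0.21, adjusted p = 0.0252). For Klrd1, a receptor subunit of NK cells and some T cells, it did so by 1.78 (SE 0.26, adjusted p = 0.0178), and the highest adjusted p on leaving out an array was 0.0539. For St3gal6 the difference was 0.72 (SE 0.13, adjusted p = 0.0392), a call kept in 1 of 12 leave-outs (highest adjusted p = 0.125).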

How the results depend on the processing

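For the 32 calls of members with all arrays, no direction reversed among 701 values under other settings, and 110 of these lost the call. Members without a call did not enter this count, and some of those did change direction. Without nTreg PBS 1 the AzaC difference in nTregs went from 0.26 to −0.11 for Itgb3 and from 0.16 to −0.03 for Itgb7. The number of members called moved by over 1.5 times as follows. For AzaC in nTregs (5) it was 8 with genes at or above the median signal only, 2 in a fit of the compared groups alone, 13 with array weights and 8 with both low-correlation arrays left out. For AzaC in CD4 cells (0) these gave 2 for the compared groups alone, 6 with array weights and 3 without both arrays, and centring gave 1. For the interaction (1) centring gave 3, array weights 7 and leaving out both arrays 2. Between populations under PBS (12) the compared groups alone gave 7. Leaving out 1 array gave 2 to 7, 0 to 6, 0 to 1, 7 to 14 and 9 to 17 members in nTregs, in CD4 cells, for the interaction, under PBS and with AzaC. With the replicate block as a fixed term the members called were 4, 1, 1, 14 and 15 in that order, and as a random term 4, 0, 1, 11 and 14. Under the replicate block Ccr7 in nTregs was not called (adjusted p = 0.0672 fixed and 0.0514 random), nor Itgal under PBS as a random term (0.0509), while the fixed term added Ccr8 in CD4 cells (0.0457), Ccr3 and Itgb2 under PBS (0.0327 and 0.0444) and Cxcr4 with AzaC (0.0498). Over all genes, leaving out 1 array gave 186 to 447, 164 to 1044, 9 to 69, 1042 to 1862 and 896 to 2467 calls against 448, 391, 45, 1777 and 1498, and other settings 125 to 1290, 341 to 1291, 39 to 401, 648 to 2528 and 1434 to 3500. With 3 arrays a group, and with no detection calls, small differences of dim members could not be resolved. The causes were not tested.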
